A study of Mus musculus with 20 samples.

Results

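Bone-marrow-derived macrophages (BMDM) sorted from a genetically engineered mouse model (GEMM) of glioma were set against resident microglia (MG) of normal brain. The aim was to see how near recruited macrophages lay to the resident state and which of its genes they held at a low level. BMDM came from tumours and these MG from normal brain, so cell origin and tumour cannot be told apart in this comparison. The comparison uses 6 of the 20 libraries, chosen by the group in their titles: BMDM numbered 68702, BB30101 and BB30105, and normal MG numbered 67572, 67573 and 67574. Blood monocytes high in Ly6C (n = 5) and microglia of GEMM tumours (n = 3, with the same 3 numbers in their titles as the BMDM) were used as reference levels. All mice were C57BL/6. For the tumours, DF1 chicken fibroblasts carrying RCAS-PDGFB-HA mixed with DF1 cells carrying an RCAS vector with shP53 were injected into the brain of Flt3:Cre Rosa26:mTmG mice at 6 weeks of age. In these mice Cre is expressed with Flt3, so that cells of bone marrow descent turn from TdTomato to GFP. BMDM were sorted as GFP+ TdTomato- and tumour MG as GFP- TdTomato+ cells, each within a gate positive for CD45 and CD11b and negative for Ly6C and Ly6G. For normal brain and blood the sources used here give no genotype, age, dissociation or gate. They also do not say whether a library is 1 animal or a pool, so p-values measure the spread between these samples.

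Microglia settle in the brain before birth and renew themselves there, while monocytes from bone marrow enter the brain mainly when it is injured or bears a tumour and can then become macrophages. Resident microglia are known for a set of surface sensors (P2ry12, Tmem119, Cx3cr1), secreted products (C1q, Olfml3) and a transcription factor, Sall1, whose upkeep depends on TGF-beta from the brain. Bone marrow cells that settle in brain are known to keep a low level of Sall1 and a higher level of MHC class II.

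The BMDM libraries held 30048409 to 32913488 counts, the normal MG libraries 26421803 to 30391652 and the monocyte libraries 5077787 to 7801073. Levels are in CPM, counts scaled to a common library total. Libraries of BMDM stood 0.47 to 0.56 apart (root mean square difference of log2(CPM + 1) over 15363 genes, 3 pairs) and those of normal MG 0.27 to 0.30. The 9 pairs of BMDM with normal MG lay 1.34 to 1.47 apart, and the 15 pairs of BMDM with monocytes 1.32 to 1.41, so that on this scale BMDM were about as far from resident microglia as from blood monocytes. Normal MG and monocytes were 1.70 to 1.81 apart. BMDM and tumour MG of the same number were nearer, at 0.88 to 0.91, and of different numbers at 0.77 to 1.07. Tumour MG and normal MG stood 0.94 to 1.14 apart (9 pairs), so tumour MG were about as far from normal MG as from BMDM.

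The genes of the sort fell as follows. Ptprc (CD45) was at 1281, 1165 and 1180 CPM in the BMDM against 479 to 548 in normal MG, a log2 difference of 1.22 ± 0.29 (SE). Itgam (CD11b) was at 401 to 579 CPM against 1403 to 1717, a fall of 1.61 ± 0.39 on the log2 scale. Flt3, whose activity drives the Cre, was at 102, 253 and 211 CPM against 4.97 to 6.89. Ly6c2, against which the cells were gated, was at 5.42, 3.51 and 7.31 CPM in the BMDM and at a mean of 1063 CPM in monocytes. Itga4, an integrin known to mark bone-marrow-derived cells in brain, was at 94.4, 102 and 117 CPM against 0.31 to 2.06. Xist was at no more than 1.47 CPM and Ddx3y at no less than 149 CPM in the 6 libraries, so these groups did not differ in the sex chromosome genes, whereas the monocytes had a mean of 361 CPM of Xist.

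Markers of other cells were present in some libraries. The 12 neutrophil markers summed to 2321 CPM in BMDM 68702, 1748 CPM of which was Retnlg, and to 270 and 199 CPM in the other BMDM. In normal MG they summed to 595 to 635 CPM, nearly all of it Csf3r, and in monocytes to between 2143 and 24449 CPM. The 10 dendritic cell markers were at 567, 1192 and 1574 CPM in the BMDM, with 9 called higher than in normal MG and Siglech, which microglia also make, lower. The gate as given names no marker that parts macrophages from dendritic cells. Markers of mast cells or basophils summed to 14.8 to 121 CPM and NK markers to 54.2 to 165 CPM in BMDM, against at most 1.44 and 11.8 CPM in normal MG. Most of the NK sum was Klrd1, at 39.5, 121 and 121 CPM in BMDM and 7.32 to 11.1 in normal MG. The 10 markers of oligodendrocyte precursors or glioma cells summed to 94.0, 18.2 and 125 CPM against 8.0 to 26.1. Astrocyte markers were lower in BMDM, at 60.6 to 88.3 CPM against 450 to 621, most of the latter being Slc1a3. The part of these cells in the results below was not tested beyond leaving out each library in turn.

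Against normal MG, BMDM had 4357 of 15363 genes higher (28.4%) and 3804 lower (24.8%) at an edgeR adjusted p under 0.05. For 4479 genes (29.2%) the 95% interval of the log2 difference lay within -1 to 1, that is within 2-fold. Against blood monocytes 4859 genes (31.6%) were higher and 3941 (25.7%) lower in BMDM. The libraries of BMDM and normal MG did not overlap for 64.7% of genes. The median log2 difference over all genes was 0.02 against normal MG and 0.08 against monocytes. The counts and medians of lists below are read against these shares.

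Of 26 surface receptors and transporters of microglia, 20 were lower in BMDM than in normal MG, 1 was higher and 5 were not called, with a median log2 difference of -2.15. Against monocytes 21 of the same 26 were higher and 2 lower, with a median of 2.18. The list therefore lay between the blood and the brain level rather than at either.
P2ry12, the ADP receptor that steers microglial processes, was at 321, 167 and 311 CPM in BMDM against 5766, 6774 and 5998 CPM in normal MG, a log2 difference of -4.54 ± 0.43 (edgeR adjusted p = 7.2e-07). The monocyte mean was 117 CPM, and the groups did not overlap. Tmem119, a membrane protein used as a microglia marker, was at 312, 103 and 316 CPM against 3002 to 3857, a log2 difference of -3.77 ± 0.65 (edgeR adjusted p = 2.9e-04), while monocytes averaged 10.6 CPM. Gpr34, a lysophospholipid receptor, was at 232, 80.9 and 197 CPM against 3029 to 3655 and 6.79 in monocytes. BMDM thus held Tmem119 and Gpr34 well above the blood level and more than 10 times below the brain level on average. Cx3cr1, the fractalkine receptor, was at 1395, 602 and 748 CPM in BMDM, which overlapped the monocyte mean of 670, against 4729 to 5638 in normal MG. Csf1r, the receptor for the survival factor CSF1, was at 2744 to 3659 CPM against 10931 to 13287, with 1852 in monocytes.

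Other surface genes were far above the blood level. Fcrls, an Fc-receptor-like gene of microglia, was at 1187, 418 and 710 CPM against 2341 to 2840 in normal MG and 4.04 in monocytes, a log2 difference of -1.73 ± 0.49 (edgeR adjusted p = 0.0076). Trem2, a lipid receptor, was at 524, 291 and 305 CPM against 797 to 876, and monocytes had 28.6. Mertk, a receptor for the uptake of dying cells, was at 318, 172 and 162 CPM against 939 to 1086, and monocytes had 1.91. In all 3 genes the BMDM were below every normal MG library and far above the monocytes. Lair1, an inhibitory collagen receptor, was at 974, 675 and 639 CPM against 990 to 1128 and did not pass the test (log2 difference -0.46, 95% interval -0.96 to 0.04). P2ry6, a UDP receptor, overlapped normal MG, at 219, 141 and 145 CPM against 168 to 212 (log2 difference -0.23, 95% interval -0.65 to 0.19). Without BMDM 68702 both were called lower, Lair1 with an edgeR adjusted p of 0.031 and P2ry6 with 0.049. Lag3, known better as a T cell checkpoint receptor, was at 34.9, 12.3 and 43.2 CPM against 26.4 to 31.8 and 0.25 in monocytes (95% interval -0.94 to 1.12).

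Gpr165, Gpr56 and Selplg were far below the normal MG level in both BMDM and monocytes. Gpr165, an orphan receptor on chromosome X (96713468 to 96719388, GRCm38.p6), was at 0, 0.1 and 0.83 CPM in BMDM against 149, 167 and 135 in normal MG and 0.34 in monocytes. Its log2 difference of -8.88 ± 0.95 was the largest fall of any called gene that reached 20 CPM in a group and did not overlap. In tumour MG it averaged 2.32 CPM, so it was low in both tumour populations. Gpr56, an adhesion receptor, was at 21.7, 12.9 and 48.9 CPM against 781 to 965, and lower than the monocyte mean of 67.0 as well. Selplg, the selectin ligand, was at 413, 411 and 667 CPM against 4528 to 5332 and 935 in monocytes. Slc2a5, the fructose transporter (chr4:150119344-150144168), was at 3.72, 4.52 and 30.1 CPM against 636 to 827 and 0.55 in monocytes, and Siglech at 49.1, 50.9 and 182 CPM against 2210 to 2609 and 14.3 in monocytes. Both were thus far below normal MG but called higher than in monocytes, by 4.51 ± 1.04 and 2.70 ± 0.51 on the log2 scale (edgeR adjusted p = 0.00024 and 0.00018). In both of these the library BB30105 was the highest of the BMDM. P2rx4, an ATP-gated channel, was the gene of the list that was higher in BMDM, at 395, 284 and 226 CPM against 102 to 109 (log2 difference 1.51 ± 0.17). Tumour MG held P2rx4 at 215 to 296 CPM and overlapped the BMDM.

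**Figure D1:**
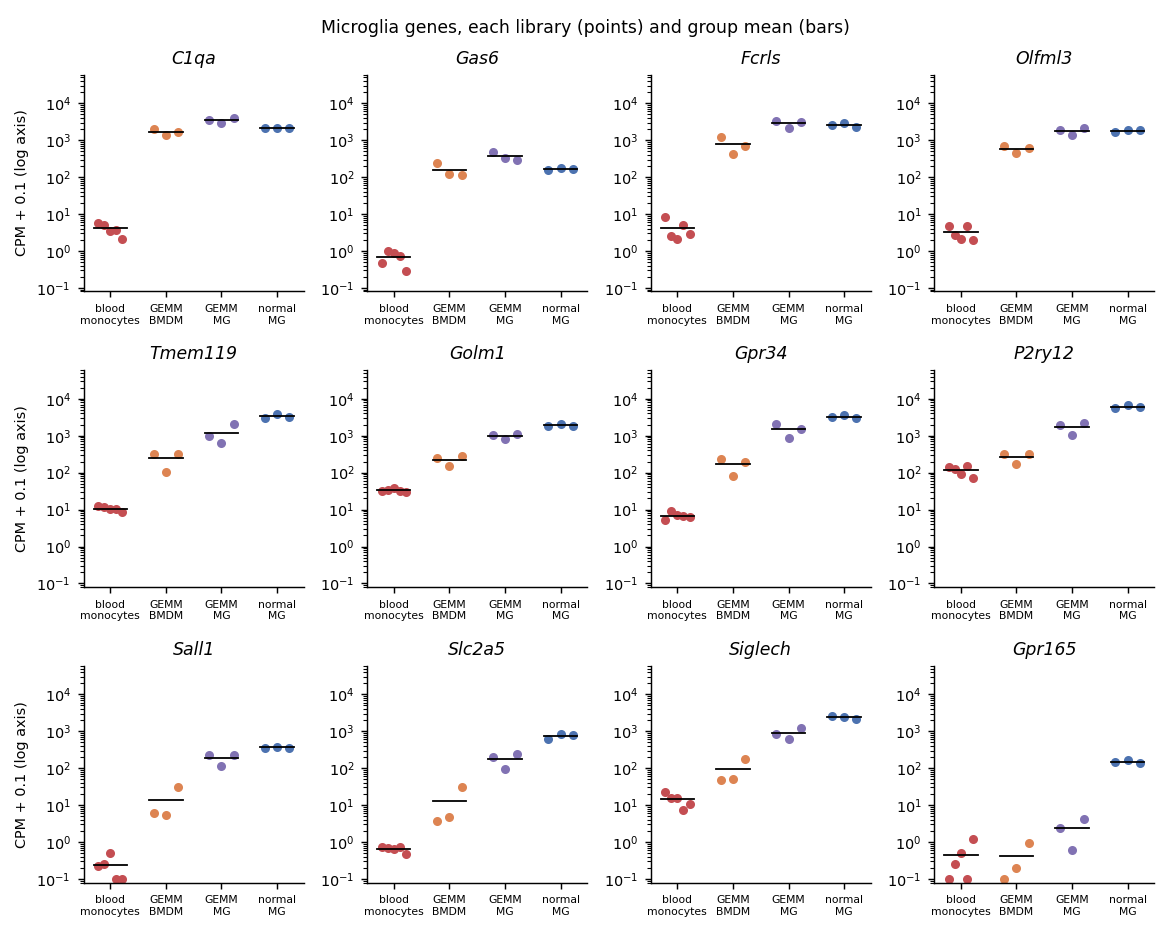
Levels of 12 microglia genes in CPM + 0.1 on a log axis, 1 point per library and a bar at the group mean, for blood monocytes (n = 5), GEMM BMDM, GEMM MG and normal MG (n = 3 each). C1qa and Gas6 in BMDM lie near the normal MG level, Tmem119, Golm1 and Gpr34 lie between monocytes and MG, and Gpr165 lies at the monocyte level, with 0 to 0.83 CPM in BMDM.

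Of 22 secreted proteins, enzymes and other identity genes of microglia, 17 were lower in BMDM, 1 was higher and 4 were not called, with a median of -2.07, and 19 were higher than in monocytes with none lower. The C1q chains, which start the classical complement pathway, were near the resident level. C1qa (chr4:136895916-136898844) was at 2033, 1396 and 1701 CPM against 2121, 2079 and 2151, a log2 difference of -0.31 with a 95% interval of -0.84 to 0.23, while monocytes averaged 3.97 CPM. C1qb was at 6008, 4747 and 5028 CPM against 6409 to 6767 (interval -0.75 to 0.10). Both lay below every normal MG library without passing the test. C1qc, at 2623 to 3407 CPM against 4067 to 4644, was called lower by 0.53 ± 0.19 on the log2 scale (edgeR adjusted p = 0.027), which became 0.081 without BMDM BB30105. Gas6, a ligand of Axl and Mertk (chr8:13465374-13494535), was at 238, 123 and 116 CPM against 156 to 180 and 0.58 in monocytes (log2 difference -0.06, interval -0.88 to 0.76).

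Other products were only partly present. Olfml3, a secreted glycoprotein, was at 708, 437 and 610 CPM against 1676 to 1880, a log2 difference of -1.62 ± 0.41 (edgeR adjusted p = 0.0034), and monocytes had 3.19 CPM. Golm1, a Golgi membrane protein, was at 155 to 283 CPM against 1837 to 2141, Ctsf, a cysteine protease, at 32.0 to 50.5 against 319 to 373, and Scamp5, a carrier membrane protein, at 32.6 to 51.2 against 214 to 259. For these the BMDM libraries were close to each other and did not overlap with normal MG. Cst3, the protease inhibitor cystatin C and one of the most abundant microglial transcripts, was at 2480, 2760 and 3938 CPM against 25404 to 28906, with 1255 in monocytes. Pros1, which like Gas6 is a ligand of Mertk, was at 155, 124 and 195 CPM against 692 to 895, and did not pass the test against the monocyte mean of 139. So of the pair of Mertk ligands Gas6 was on average near the normal MG level and Pros1 near the monocyte level. Crybb1, a crystallin of unknown use in microglia, was at 5.57, 4.05 and 12.8 CPM against 215 to 272 and 4.14 in monocytes. Sparc, a matrix-binding protein, was at 73.3, 113 and 509 CPM against 3439 to 3725. Tgfb1 itself was higher in BMDM, at 161 to 231 CPM against 97.5 to 105 (log2 difference 0.98 ± 0.20).

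Of 20 transcription factors of microglia, 13 were lower in BMDM, 3 were higher and 4 were not called, with a median of -2.07. Against monocytes 8 were higher and 7 lower, with a median of 0.18, so the factors as a list were not shifted from the blood level as the surface and secreted lists were, with medians of 2.18 and 3.34. Sall1, the zinc finger factor that marks microglia (chr8:89027242-89044162), was at 5.89, 5.36 and 30.6 CPM against 360, 381 and 351 CPM, a log2 difference of -4.71 ± 0.55 (edgeR adjusted p = 8.2e-06), with 0.14 in monocytes and 191 in tumour MG. These are 1.62%, 1.47% and 8.39% of the normal MG mean, with BB30105 the highest. Without BB30105 the difference was -6.00. Sall3 was at 1.23, 1.34 and 9.21 CPM against 42.6 to 66.0. Jun, an immediate early factor (chr4:95049036-95052222), was at 508, 361 and 328 CPM against 5020 to 6279 and did not pass the test against the monocyte mean of 444. Mef2a, at 129 to 177 CPM against 572 to 684, Mef2c, at 94.3 to 160 against 638 to 678, Smad3, at 11 to 22.6 against 79.2 to 83.3, and Ets1, at 21.5 to 29.4 against 183 to 224, all had BMDM levels below the monocyte mean as well. Of these Mef2c did not pass the test against monocytes (edgeR adjusted p = 0.085). For Ets1 the monocyte libraries ran from 21.0 to 178 CPM and overlapped the BMDM. Maf, at 12 to 25 CPM against 51.1 to 90.3, was near the monocyte mean of 18.7. Tumour MG held Jun at 413 to 819 CPM, Mef2a at 169 to 211 and Maf at 18.4 to 29.0. These overlapped the BMDM, so their fall was not particular to BMDM. Mef2c (222 to 376 CPM), Smad3 (27.8 to 56.5) and Ets1 (41.9 to 70.3) were higher in tumour MG than in BMDM, without overlap.

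A smaller group of factors was not called against normal MG. Irf8, a factor of myeloid descent, was at 611, 368 and 472 CPM against 552 to 667, Runx1 at 106, 181 and 153 against 178 to 189, and Cebpa at 119, 65.9 and 90.4 against 115 to 122. Each overlapped normal MG, and for Runx1 and Cebpa the 95% interval lay within 2-fold. Monocytes averaged 336 CPM of Irf8, 105 of Runx1 and 20.5 of Cebpa. Irf8 and Runx1 did not pass the test against monocytes either (edgeR adjusted p = 0.12 and 0.095), while Cebpa was called higher than in monocytes. Sfpi1, the gene of PU.1, was higher by 0.61 ± 0.18, a call lost in 2 of 13 other settings, without normal MG 67572 or 67574. Bhlhe40 (chr6:108660629-108666925) was far higher, with 483, 769 and 683 CPM against 1.68 to 2.86, a log2 difference of 8.04 ± 0.46 (edgeR adjusted p = 8.2e-09). It averaged 65.8 CPM in monocytes and 71.8 in tumour MG, so the BMDM were above the 3 other populations.

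To put the genes on a common scale, the mean level of BMDM on log2(CPM + 1) was placed between that of monocytes (0) and that of normal MG (1), for genes at least 2-fold higher in normal MG than in monocytes and at 20 CPM or more in normal MG. Of the 68 members of the lists 58 qualified, and their median place was 0.48. It was 0.50 for 25 surface genes, 0.58 for 21 secreted genes and 0.12 for 12 transcription factors. Places under 0.25 were held by 16 of the 58, places over 0.75 by 12. Over all 1564 genes with such a gap the median was 0.52, with 26.7% under 0.25 and 27.9% over 0.75, so the microglia lists as a whole were placed much as other genes higher in microglia. Tumour MG had a median place of 0.82 over the 58 genes and 0.75 over all. By list it was 0.80 for surface genes, 0.93 for secreted genes and 0.37 for transcription factors. The factors thus had the lowest median in tumour MG as well, so their low place was not particular to BMDM. By library the median place of the 58 was 0.49, 0.39 and 0.53 in BMDM 68702, BB30101 and BB30105. A place is a description, and for genes with few counts in monocytes it moves with the added 1 CPM. Of 1678 genes that were at least 2-fold higher in monocytes and at 20 CPM or more there, the median place was 0.45, again with monocytes at 0.

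**Figure D2:**
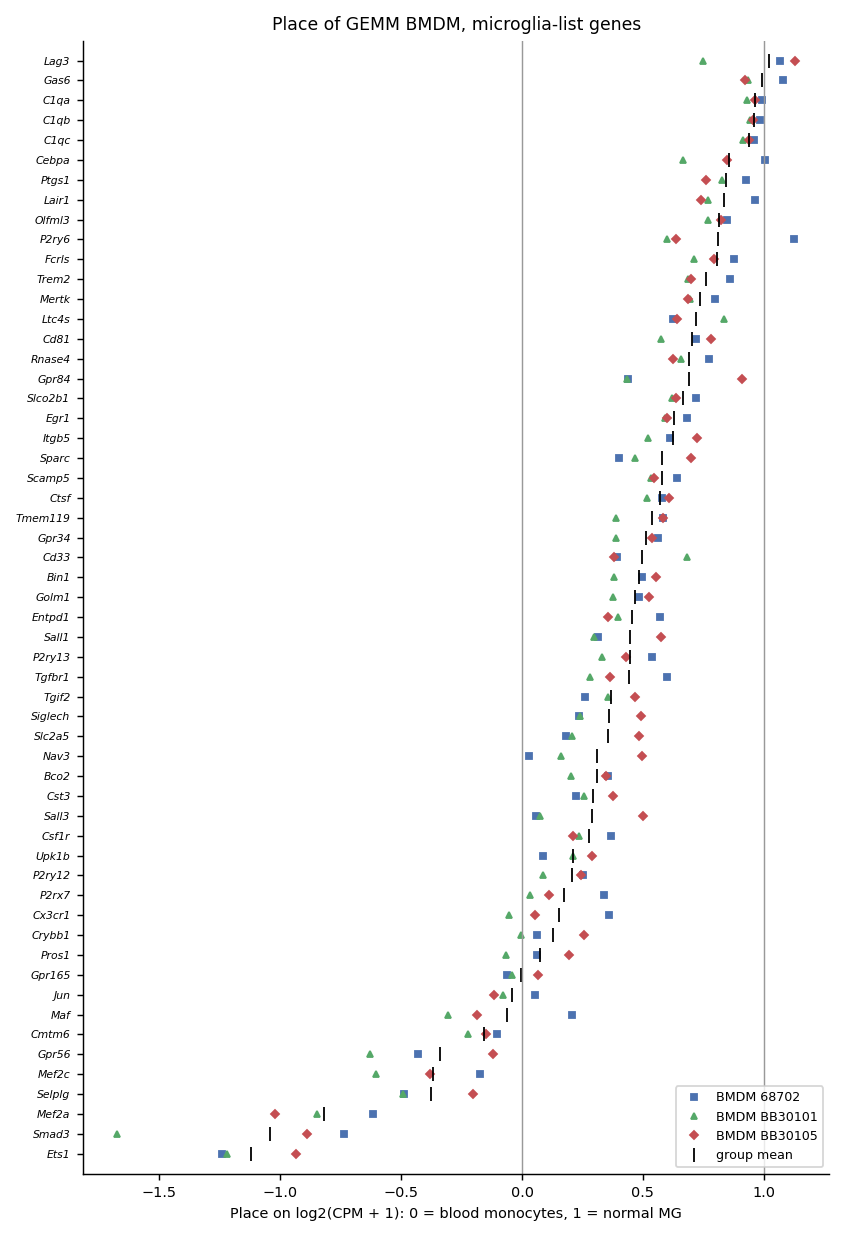
Place of GEMM BMDM between blood monocytes (0) and normal MG (1) on log2(CPM + 1) for 56 of the 58 microglia-list genes that qualified, with a symbol for each BMDM library and a tick for the group mean. Lag3, Gas6 and the C1q genes sit near 1, Jun, Gpr165 and Pros1 near 0, and Ets1, Smad3 and Mef2a below 0, where BMDM are under the monocyte mean.

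The promoters of the genes at the ends of this scale are given to set the sequence of genes near the blood level beside that of genes near the resident level. They run from 250 bases before to 50 bases after the start in RefSeq (GRCm38.p6), and 41 of the 58 genes had an entry. Each was searched on both strands for 4 short motifs of factors that act in macrophages: GAGGAA for PU.1, TGTGGT for RUNX, TGCTGA for MAF and CAGACA for SMAD. Matches are in capitals, and on the opposite strand they appear as the reverse complement. Of 27025 promoters of the same length 28.3% held the PU.1 motif, 16.9% the RUNX motif, 19.1% the MAF motif and 21% the SMAD motif. The 3 genes with an entry nearest to place 0 come first.
Gpr165, chrX:96713218-96713517, plus strand: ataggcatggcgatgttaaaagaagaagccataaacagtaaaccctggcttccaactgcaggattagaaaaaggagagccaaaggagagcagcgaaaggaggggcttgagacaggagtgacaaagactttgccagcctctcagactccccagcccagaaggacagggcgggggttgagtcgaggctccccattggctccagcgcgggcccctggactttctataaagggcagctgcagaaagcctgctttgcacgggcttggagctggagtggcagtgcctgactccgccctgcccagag
Jun, chr4:95052173-95052472, minus strand: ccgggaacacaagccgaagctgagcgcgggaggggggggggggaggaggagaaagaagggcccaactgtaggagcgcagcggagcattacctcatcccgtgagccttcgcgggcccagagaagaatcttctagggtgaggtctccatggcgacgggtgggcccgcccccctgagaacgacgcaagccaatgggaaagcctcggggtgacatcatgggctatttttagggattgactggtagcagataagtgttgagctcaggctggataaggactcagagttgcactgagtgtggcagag
Pros1, chr16:62854057-62854356, plus strand: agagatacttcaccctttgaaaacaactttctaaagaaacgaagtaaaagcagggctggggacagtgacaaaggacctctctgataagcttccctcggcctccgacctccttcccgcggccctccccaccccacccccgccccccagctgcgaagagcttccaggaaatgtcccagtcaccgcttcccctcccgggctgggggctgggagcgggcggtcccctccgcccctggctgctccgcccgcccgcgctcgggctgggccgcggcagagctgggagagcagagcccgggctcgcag
The 3 genes with an entry nearest to place 1 were these.
Gas6, chr8:13494486-13494785, minus strand: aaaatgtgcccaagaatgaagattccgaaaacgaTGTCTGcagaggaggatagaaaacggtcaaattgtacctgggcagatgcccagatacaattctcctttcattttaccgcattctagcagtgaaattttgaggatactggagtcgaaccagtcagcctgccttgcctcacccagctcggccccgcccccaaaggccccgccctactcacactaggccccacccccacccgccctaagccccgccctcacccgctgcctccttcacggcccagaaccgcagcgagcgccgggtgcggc
C1qb, chr4:136886151-136886450, minus strand: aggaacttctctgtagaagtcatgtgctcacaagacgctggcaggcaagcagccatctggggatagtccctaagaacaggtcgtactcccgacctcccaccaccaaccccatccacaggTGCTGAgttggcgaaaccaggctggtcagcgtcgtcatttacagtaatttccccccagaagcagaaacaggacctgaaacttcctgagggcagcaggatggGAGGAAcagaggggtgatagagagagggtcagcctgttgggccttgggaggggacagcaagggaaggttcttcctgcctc
C1qc, chr4:136892865-136893164, minus strand: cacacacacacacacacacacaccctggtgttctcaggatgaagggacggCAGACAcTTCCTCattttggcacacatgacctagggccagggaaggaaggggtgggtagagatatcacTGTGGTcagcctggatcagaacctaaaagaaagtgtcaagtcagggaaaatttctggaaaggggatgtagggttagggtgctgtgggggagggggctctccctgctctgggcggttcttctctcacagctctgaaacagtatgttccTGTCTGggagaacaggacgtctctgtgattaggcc
None of the 4 motifs was found in the promoters of Gpr165, Jun and Pros1. Gas6 held 1 SMAD match, C1qb 1 PU.1 and 1 MAF match, and C1qc 1 PU.1, 1 RUNX and 2 SMAD matches. Among all members with an entry, the PU.1 motif was in 6 of 9 promoters at a place over 0.75 and in 3 of 11 under 0.25, the SMAD motif in 5 of 9 and 1 of 11, the RUNX motif in 2 of 9 and 1 of 11, and the MAF motif in 2 of 9 and 3 of 11. These are letter matches in short windows, and no binding was measured.

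BMDM and tumour MG libraries carry the same 3 numbers in their titles, so each BMDM library was also set against the MG library of its number. Among 60 list members at 50 CPM or more in tumour MG, the lowest percentages in BMDM 68702 were 1.77% for Nav3, 1.86% for Slc2a5, 2.55% for Sall1 and 2.82% for Sparc. In BMDM BB30101 the same genes were at 4.73%, 4.80%, 4.57% and 4.69%. In BMDM BB30105 they were at 20.5%, 12.1%, 13.6% and 14.3%. These genes were picked as the lowest in 68702, so their likeness in that library follows from the choice. In BB30101 the lowest member was Gpr84, at 4.27%. The percentages of the picked genes differed between libraries. P2ry12 was at 16.7%, 15.8% and 13.9% of the MG of the same number, Gpr34 at 11.5%, 9.22% and 12.6% and Tmem119 at 31.1%, 16.4% and 15.6%. In BB30105 these 3 were thus close to the percentages of Slc2a5 and Sall1. In 68702 they were at least 4 times higher than Slc2a5 and Sall1, which had been picked as low there. C1qa was at 59.5%, 46.6% and 41.5% and Fcrls at 35.2%, 19.0% and 22.5%. Whether microglia RNA entered the BMDM libraries was not tested. Without BB30105 the log2 difference from normal MG was -7.48 for Slc2a5 in place of -5.86, -5.57 for Siglech in place of -4.68, -5.24 for Sparc in place of -3.95 and -5.63 for Nav3 in place of -4.18. Gpr84, an orphan receptor at 23.6, 23.1 and 129 CPM against 145 to 211, did not pass the test with all libraries (-1.60 ± 0.74, edgeR adjusted p = 0.087) and was called lower without BB30105 (-2.91, edgeR adjusted p = 0.0082).

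**Figure D3:**
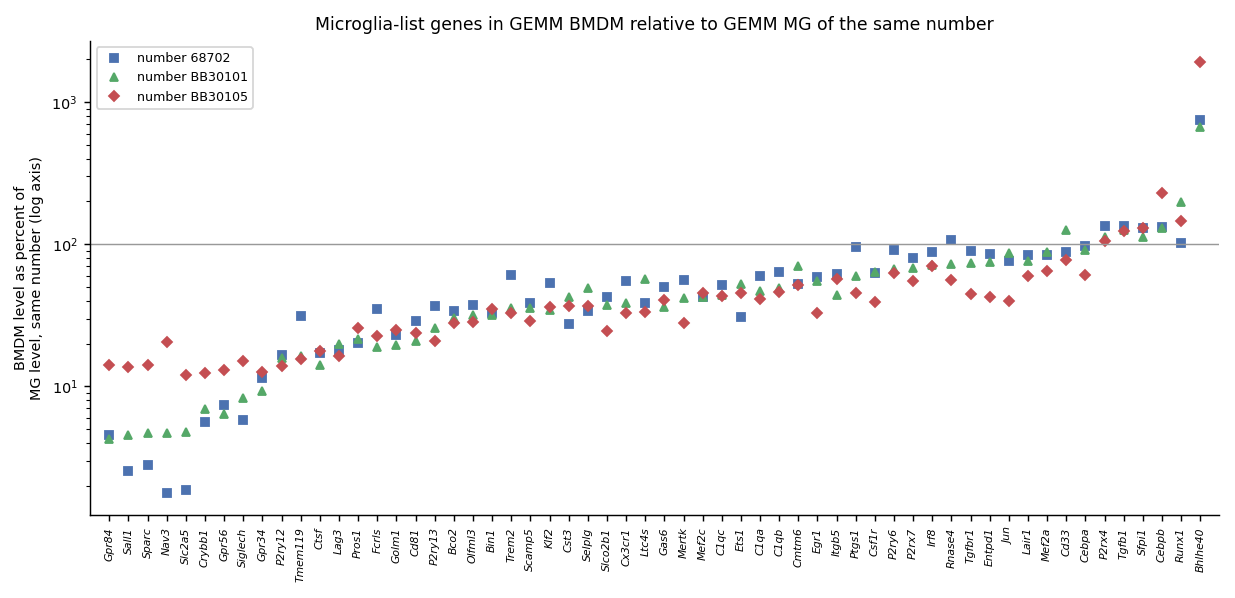
Level of 58 of the 60 microglia-list genes in each GEMM BMDM library as a percentage of the GEMM MG library of the same number, on a log axis with a line at 100%. Genes are sorted by the median of these percentages, so those at the left are low by choice. The first 5 are at 1.77% to 4.56% in 68702 and 12.1% to 20.5% in BB30105, and Bhlhe40 at the right is above 100% in all 3.

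Genes of the TGF-beta pathway, on which Sall1 and other microglia genes depend, were mixed. Of 26 members 6 were higher and 8 lower in BMDM than in normal MG, with a median of -0.21. Without BMDM BB30101 the lower members were 5. Tgfbr1, the type I receptor, was at 874, 342 and 439 CPM against 2620 to 3111 (-2.35 ± 0.42), and Smad3 and, by a smaller amount, Smad2 (73.4 to 78.7 against 98.2 to 115 CPM) were lower. Tumour MG held Tgfbr1 at 462 to 979 CPM and Smad2 at 59.1 to 78.7, and both overlapped the BMDM, whereas Smad3 did not. Acvrl1, another type I receptor, was at 88.8 to 137 CPM against 26.1 to 28.8 (1.99 ± 0.29). Tgfbi, a matrix protein named for its induction by TGF-beta, was at 745, 1200 and 1290 CPM against 39.8 to 54.0 (4.53 ± 0.29), near the monocyte mean of 1388. Ligands, receptors and targets thus did not move in the same direction.

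Immediate early and dissociation stress genes were lower in BMDM for 14 of 21 members and higher for 1, with a median of -1.23. Without BMDM BB30101 the lower members were 9. Egr1 was at 1101, 669 and 704 CPM against 5024 to 7415 and Ier5 at 199 to 241 against 1450 to 1522. Nr4a1, higher in BMDM, was at 1193 to 1334 CPM against 156 to 273. Against monocytes 15 of the 21 were higher in BMDM and none lower. Jun and Egr1 are also in the factor list above, and the sources used here do not say how normal brain was dissociated. The part of cell isolation in these 2 genes was not tested.

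General macrophage genes were divided. Of 30 members 14 were higher in BMDM and 6 lower, with a median of 0.49, and for 9 the interval lay within 2-fold, a share near that of all genes. Without normal MG 67574 the higher members were 9. Emr1, the gene of F4/80, was at 947, 520 and 528 CPM against 581 to 703 (interval -0.34 to 0.50), Fcgr1, an Fc receptor, at 324, 183 and 237 against 232 to 252 and Syk, a signalling kinase, at 218 to 301 against 226 to 269. These 3 overlapped between the groups. The 6 lower were Csf1r, Mertk, Tlr4, Fcgr3, Itgam and Sirpa. Cybb, the NADPH oxidase subunit of the oxidative burst, was at 2141, 1127 and 1153 CPM against 5.37 to 13.6 (7.42 ± 0.41), near the monocyte mean of 2318. Lgals3, galectin 3, was at 519 to 829 against 3.80 to 5.42 and 1154 in monocytes. Msr1, a scavenger receptor, was at 232 to 390 against 7.64 to 11.1. In tumour MG Lgals3 averaged 521 CPM and Msr1 159, and both overlapped the BMDM. Cybb, at a mean of 199 CPM there, did not.

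Lysosomal genes were higher for 18 of 31 members and lower for 3, and 26 were higher than in monocytes. Ctsb, the protease cathepsin B, was at 18918, 12310 and 9695 CPM against 3705 to 4001 (1.83 ± 0.22) with 2131 in monocytes. In tumour MG it was at 18637 to 20163 CPM, so this rise was not particular to BMDM. Lipa, the acid lipase, was at 1061, 450 and 410 CPM against 113 to 128. Lgmn, legumain (chr12:102394082-102439728), was at 4111, 3441 and 3243 CPM against 3583 to 3945 and 149 in monocytes (interval -0.48 to 0.33), and Hexa, at 876 to 1188 against 896 to 975, had an interval of -0.27 to 0.39. Both overlapped the resident level. Among complement genes 9 of 20 were higher and 4 lower. C3ar1, the C3a receptor, was at 941, 614 and 526 CPM against 543 to 727 with 12.7 in monocytes (interval -0.36 to 0.61). Cfb, a factor of the alternative pathway, was at 574, 365 and 460 CPM against 1.28 to 1.95 (8.25 ± 0.44), and C3 at 42.1 to 72 against 0.54 to 0.82. C1q was thus near the resident level and Cfb and C3 above it.

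Classical monocyte genes were far above the resident level. Of 36 members 34 were higher than in normal MG, 1 (Ly6c1) lower and 1 not called, with a median of 6.51. Against monocytes 30 were lower and 1 higher, with a median of -2.59. Plac8, a small protein of monocytes and neutrophils, was at 213, 237 and 352 CPM against 0.55 to 0.77 and 929 in monocytes, a log2 difference of 8.62 ± 0.33 (edgeR adjusted p = 1.1e-10). Ifitm3, an antiviral membrane protein, was at 625 to 1213 CPM against 10.7 to 15.3, Cd44, a hyaluronan receptor, at 138 to 211 against 1.06 to 1.99 and Ms4a4c at 200 to 361 against 2.08 to 3.5. In monocytes the 3 averaged 1938, 1030 and 518 CPM. BMDM held these genes below the blood level and outside the range of normal MG. For 35 classical monocyte genes that qualified as higher in monocytes the median place was 0.33, against 0.45 for all such genes, and 0.72 in tumour MG. Monocytes are at 0 and normal MG at 1 here as well. Integrins for entry from blood likewise lay between the blood and the resident level. Itgal was at 109 to 282 CPM against 0.16 to 0.40 and 802 in monocytes, and Itgb7 at 140 to 264 against 0.63 to 1.14 and 785. Cxcr4, the CXCL12 receptor, was at 219, 70.1 and 121 CPM, above both normal MG (0.77 to 1.17) and the monocyte mean of 7.79. Itgb1, by contrast, was at 490 to 556 CPM against 477 to 545.

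Genes of antigen presentation were far above the resident level. Of 19 MHC class II genes 13 were higher and 2 lower than in normal MG, with a median of 2.73. The 2 lower, Rfx5 and Cd86, became 1 or 0 when any single library of the groups was left out. H2-Ab1 (chr17:34263227-34269418) was at 7418, 13889 and 12490 CPM against 17.7, 19.0 and 30.4 CPM, a log2 difference of 8.98 ± 0.34 (edgeR adjusted p = 2.5e-10). H2-Eb1 was at 3460 to 6460 CPM against 3.33 to 8.12 and H2-Aa at 4978 to 9475 against 5.51 to 14.9. Monocytes averaged 1332, 436 and 1156 CPM and tumour MG 925, 357 and 653 CPM, so BMDM were higher than the means of the 3 other populations. Ciita, the master regulator of class II, was at 167, 307 and 265 CPM against 0.39 to 0.82 and 95.9 in monocytes. Cd40 was at 54.2 to 92.5 CPM against 0.20 to 0.48. Rfxap and Rfx5, which with Ciita act at class II promoters, were at 19.5 to 22.3 CPM against 22.1 to 26.4 and at 24.2 to 26.4 against 35.0 to 36.1, both with an interval within 2-fold. Ctss, the protease that trims the invariant chain, was at 8019 to 10391 CPM against 7127 to 7666. Ciita and the class II chains were lowest in 68702 and highest in BB30101, and so were Flt3 at 102, 253 and 211 CPM and, with BB30105 highest, Ccr7 at 159, 381 and 565 CPM and Cd209a at 124, 247 and 296 CPM. The last 3 are dendritic cell markers, and the part of such cells in the class II level was not tested.
Of 24 genes of dendritic cell type 23 were higher and 1 lower. Of 18 class I genes 15 were higher and none lower, by smaller amounts, with a median of 1.34. Psme2, an immunoproteasome activator, was at 240 to 279 CPM against 77.1 to 79.3 (1.73 ± 0.11) and Psmb8, an immunoproteasome subunit, at 560 to 642 against 150 to 160.

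Interferon response genes were above the resident level and mostly not called against the blood level. Of 30 members 28 were higher than in normal MG and 1 (Irf1) lower, with a median of 3.45, whereas against monocytes 6 were higher, 4 lower and 20 not called, with a median of 0.11. Zbp1, a nucleic acid sensor, was at 170, 101 and 133 CPM against 1.04 to 1.23 and 148 in monocytes (6.87 ± 0.30), and Irf7 at 393, 213 and 451 CPM against 9.41 to 11.1 and 503. Oas1a and Rsad2, both antiviral enzymes, were at 125 to 178 and 116 to 164 CPM against 4.74 to 5.48 and 1.25 to 3.33. The median place of 26 qualifying members was -0.06, and that of tumour MG was 0.09. Cell cycle genes were higher for 29 of 30 members with a median of 3.29, and for 28 against monocytes. Mki67, a marker of cycling cells, was at 40.2, 55.9 and 78.1 CPM against 2.86 to 4.20, and tumour MG averaged 79.6.

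**Figure D4:**
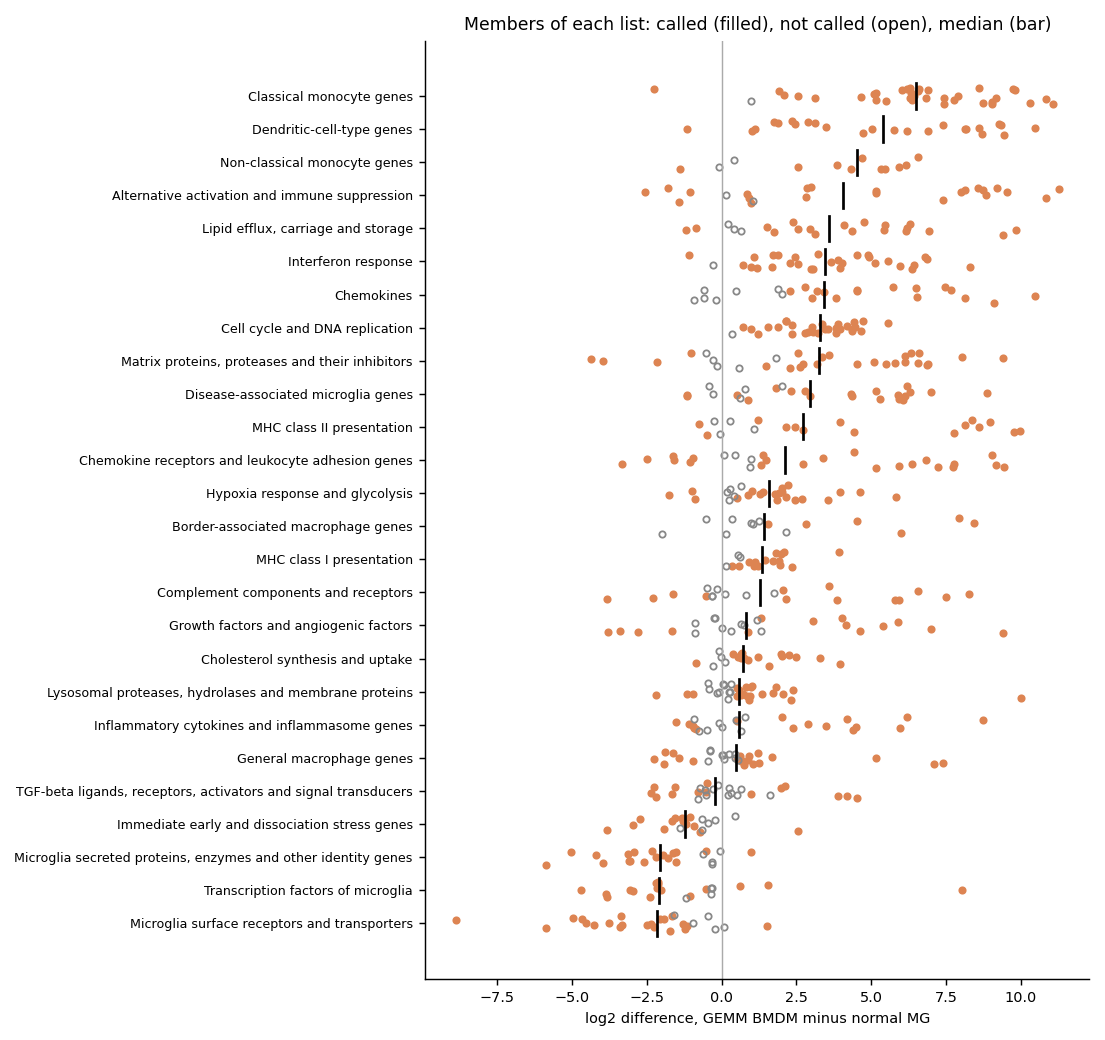
Log2 difference, GEMM BMDM minus normal MG, for each tested member of the 26 lists, filled where edgeR's adjusted p was under 0.05 and open where not, with a bar at the list median. The 3 microglia lists have medians of -2.15, -2.07 and -2.07, and classical monocyte genes are at the top with 6.51.

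Of 25 genes known from microglia in disease, 18 were higher in BMDM and 2 lower (Trem2 and Ctsl), with a median of 2.97. The lower members were 1 without normal MG 67572 or BMDM 68702. Axl, a receptor for Gas6, was at 1896, 896 and 1186 CPM against 15.7 to 26.7 and 75.8 in monocytes (5.90 ± 0.32, edgeR adjusted p = 2.9e-09). Clec7a, the beta-glucan receptor dectin-1, was at 1344 to 2485 CPM against 25.2 to 27.6, and Cd52 at 707 to 903 against 33.9 to 45.4. Tumour MG averaged 828, 1566 and 817 CPM for these 3 genes. Lipid efflux and storage genes were higher for 17 of 22 and lower for 2, or 1 without normal MG 67572, BMDM BB30101 or BMDM BB30105. Apoc2, a lipase cofactor, was at 225, 153 and 114 CPM against 0.10 to 0.41, Plin2, a lipid droplet coat protein, at 470 to 935 against 43.3 to 44.8 and Soat1, which esterifies cholesterol, at 354 to 514 against 68.3 to 76.6. Nr1h2, the receptor LXR beta, was at 68.8 to 78.4 against 62.3 to 65.9 CPM (0.22 ± 0.14) and did not pass the test. Cholesterol synthesis and uptake genes were higher for 15 of 20 members and lower for 1, or 2 without BMDM BB30101, by a median of 0.71, with Pmvk, a kinase of the mevalonate pathway, at 25.1, 65.6 and 43.5 CPM against 6.97 to 8.94, and 12 of the 20 were lower than in monocytes. Scap, the sterol sensor that carries SREBP, was at 54.5 to 68.3 CPM against 57.9 to 65.6 (interval -0.32 to 0.30).

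Of 24 genes of alternative activation 18 were higher and 4 lower, with a median of 4.07. Kmo, the kynurenine monooxygenase, was at 131, 354 and 266 CPM against 0.04 to 0.17 and 24.4 in monocytes. Il1rn, the interleukin 1 receptor antagonist, was at 1124, 283 and 247 CPM against 1.07 to 1.41. Stab1, a scavenger receptor, was at 550, 272 and 248 CPM against 312 to 326 and 5.29 in monocytes (interval -0.62 to 0.94). Of 24 inflammatory genes 11 were higher and 5 lower. Il1b was at 2788, 3743 and 4994 CPM against 42.6 to 100 (5.95 ± 0.51) and tumour MG averaged 2008. Tnfaip3, a brake on NF-kB, was at 675 to 921 CPM against 765 to 975, and Pycard, the inflammasome adaptor, at 111 to 137 against 117 to 127. The last 2 overlapped with normal MG and had intervals within 2-fold.

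Chemokines were higher for 16 of 23 members and lower for none. Cxcl16 was at 925, 1071 and 1030 CPM against 86.2 to 99.3 and 12.7 in monocytes (3.44 ± 0.20, edgeR adjusted p = 1.8e-09). Ccl22, which is also in the dendritic cell marker list, was at 78.5, 142 and 207 CPM against 0.38 to 0.74, and Cxcl2 at 118 to 229 against 11.7 to 21.4. The part of dendritic cells in the Ccl22 level was not tested. Of growth and angiogenic factors 10 of 24 were higher and 4 lower. Vegfa was at 178, 202 and 170 CPM against 4.87 to 11.9 (4.61 ± 0.50), with 4.37 in monocytes and 52.9 in tumour MG. Tgfa, a ligand of the EGF receptor, was at 6.80, 6.16 and 24.0 CPM against 159 to 192 (-3.80 ± 0.37). Matrix genes were higher for 21 of 30 and lower for 4, with Thbs1, thrombospondin 1, at 932 to 1184 CPM against 28.1 to 34.8 and Mmp14, a membrane metalloproteinase, at 301 to 495 against 38.7 to 49.0 and 0.91 in monocytes. Glycolysis and hypoxia genes were higher for 18 of 26 and lower for 3. Ldha, lactate dehydrogenase A, was at 1172, 1818 and 1503 CPM against 250 to 315 (2.46 ± 0.19), while Slc2a1, the glucose transporter GLUT1, overlapped at 110 to 177 against 97.6 to 133. The libraries of the factors called here did not overlap between the groups.

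Among 14 genes of border-associated macrophages, which are the resident macrophages of the meninges and vessels, 6 were higher and none lower. Ms4a7, which also marks marrow-derived macrophages in brain, was at 1147, 550 and 385 CPM against 1.76 to 2.16 and 6.62 in monocytes (8.43 ± 0.51). Clec4n and Siglec1, both lectins, were at 191 to 283 CPM against 0.78 to 1.04 and at 47.7 to 72.1 against 0.77 to 1.10. Lyve1, a defining marker of these cells, averaged 1.34 CPM in BMDM and 5.29 in normal MG.

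The 10 largest rises among genes at 20 CPM or more included several with almost no count in normal MG. Mcpt1, a mast cell protease, was at 23.3, 42.7 and 12.9 CPM and had no count in the 3 normal MG libraries, which makes BMDM at least 740-fold higher over a floor of 3 counts in the group. Cdh1, E-cadherin, was at 128, 497 and 242 CPM against 0.04 to 0.10, Acp5, the acid phosphatase TRAP, at 780, 960 and 539 against 0.35 to 0.65 (10.53 ± 0.73) and Adamdec1, a metalloprotease of macrophages, at 1033, 521 and 69.6 against 0.12 to 0.27. Ccl17 was at 55.9, 283 and 188 CPM against 0 to 0.17 and AA467197 at 20.2, 98.6 and 60.8 against 0 to 0.03. Retnlg, S100a9 and Chi3l3, all abundant in neutrophils or monocytes, were at 1748, 71.8 and 6.79 CPM, at 111, 3.65 and 0.10 CPM and at 64.2, 279 and 18.5 CPM, against at most 0.235 CPM in normal MG. These 3 differed more than 10-fold between BMDM libraries, and without 68702 the log2 difference was 7.58 for Retnlg in place of 11.60. Chi3l3 lost its call in 5 of 12 other settings, 4 of them with 1 library left out, S100a9 in 1 of 12 and Retnlg in 1 of 13. Near-identical copies of Mcpt1, Chi3l3 and S100 genes can share reads.
The 10 largest falls were Gpr165, Upk1b and Slc2a5 of the microglia lists with Ttr, Slc39a12, Tppp, Csmd3, Tmc7, Tmem204 and Gp9. Csmd3, a large membrane protein, was at 0.90, 0.77 and 5.33 CPM against 210, 199 and 234 (-6.52 ± 0.76) and Tmem204 at 1.37, 0.77 and 1.63 against 59.9 to 71.7 (-5.71 ± 0.51). Tumour MG averaged 30.9 and 5.81 CPM, so these genes were also lower in tumour MG than in normal MG. Gp9, known from platelets, was at 0.145 to 1.00 CPM against 29.7 to 36.4, with 154 in monocytes. Ttr, transthyretin of the choroid plexus, was at 123, 6.42 and 17.2 CPM in normal MG and at no more than 0.97 in BMDM, so it varied most among the normal libraries.

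BMDM were also outside both reference states for some genes. In 236 of 15363 genes (1.54%) every BMDM library was above every normal MG and monocyte library, with a mean at least 4 times that of both and at 20 CPM or more. Tumour MG were not part of this criterion, so the count does not set BMDM apart from them. Beside Mcpt1, Ccl17 and Adamdec1, the genes with the largest ratio to the higher of the 2 references included Ccl8, at 113, 227 and 142 CPM against means of 0.29 in normal MG and 0.19 in monocytes, and Arg1, which breaks down arginine, at 201, 1996 and 220 CPM against 1.76 and 2.29. Gpnmb, a glycoprotein of lipid-laden macrophages, was at 802, 366 and 112 CPM against 0.90 and 1.98, and Anpep, an aminopeptidase, at 52.1, 89.9 and 86.2 against 0.26 and 0.32. Tumour MG averaged 26.4 CPM of Ccl8, 376 of Arg1, 146 of Gpnmb and 4.05 of Anpep. Of abundant genes chosen after their values were seen, Apoe was at 73658, 35018 and 22868 CPM against 433 to 782 and Spp1, osteopontin, at 1823, 1328 and 548 against 11.5 to 27.2. In tumour MG Spp1 averaged 1747 CPM (491 to 3538) and overlapped the BMDM, so its rise was not particular to them. The reverse, every BMDM library under both references with a mean at least 4 times lower than either, held for 14 genes (0.0911%).

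**Figure D5:**
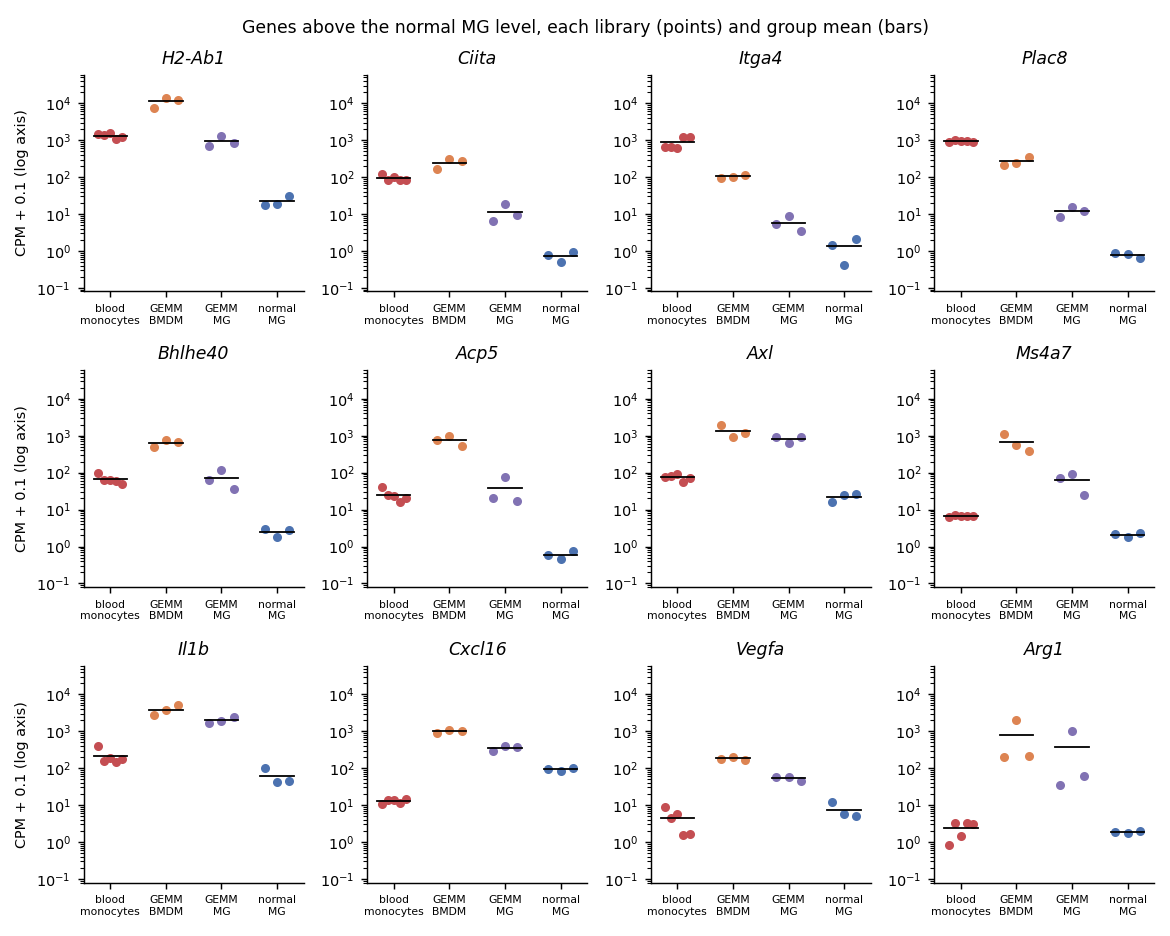
Levels of 12 genes above the normal MG level in CPM + 0.1 on a log axis, 1 point per library and a bar at the group mean, for the same 4 groups. H2-Ab1, Ciita and Bhlhe40 are higher in BMDM than in each other group's mean, Itga4 and Plac8 lie between monocytes and MG, and Arg1 differs between BMDM libraries, from 201 to 1996 CPM.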

How the data were processed

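The libraries were made from polyadenylated RNA of sorted cells with a Smart-Seq kit, per the labels' protocols. The deposited table holds raw counts per gene symbol from the authors, whole numbers whose totals differ between libraries. Per the submitters' processing notes, mm10 was the build and CASAVA 1.8, DESeq2, HTSeq and STAR 2.5.0e the tools, with no role or order stated. No source used here gives the annotation or says if strand was used, so overlapping genes and near-identical copies (Ly6, H2, S100, Mcpt, Ifitm, Chi3l3) are uncertain. All 20 columns were matched to a library by title.

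Of 23329 symbols, 15363 passed filterByExpr (minimum count 10, minimum total 15) in edgeR 4.0.16 (R 4.3.3). The fit was the robust quasi-likelihood model with TMM scaling over 20 libraries and 6 groups, the Benjamini-Hochberg adjustment ran over all genes tested, and a call has an adjusted p under 0.05. Standard errors and 95% intervals are of Wald type from that fit. CPM are on TMM-scaled library sizes, with a different scale from the authors' own, and levels of different genes are not per length. With 3 libraries a group no exact test over samples could go below 0.10, so the calls rest on the spread shared across genes. The script was tested on simulated data.

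Alternatives were DESeq2 1.42.0, limma-voom (limma 3.58.1), other scalings and filters, the compared groups alone and leaving out each library. The members, 26 lists and 14 marker lists were chosen with earlier results of these data known. Named genes are the 10 per direction with the largest log2 difference among those called, without overlap and at a mean of 20 CPM in either group, up to 4 members per list with the smallest p, up to 3 per list at 20 CPM or more in both groups with an interval within 2-fold, all members of the microglia lists, and the genes of the sort. Others were named after their values were seen, among them Ccl8, Arg1, Gpnmb, Anpep, Apoe, Spp1 and Lyve1. Ly6g is not analysed here, and some list members are counted but not reported by name. Coordinates and promoters are from RefSeq, GRCm38.p6, matched by symbol.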

Additional observations from a re-analysis of the deposited data

Results flagged for a closer look

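Only the 5 blood monocyte libraries form a group large enough for a test of single libraries, and 60 microglia-list genes at 1 CPM or more on average there were tested. In 6 of them 1 library stood apart from the others, where chance gives about 1 in 20. Monocyte library 64817 was the highest for P2ry13 at 81.1 CPM (others 20.5 to 29.3), for Cd33 at 252 CPM (74.7 to 103), for Selplg at 1381 CPM (743 to 910) and for Entpd1 at 134 CPM (59.5 to 69.7). Library 64820 was the highest for Mertk at 2.68 CPM (1.63 to 1.88), and library 64821 was the lowest for Ptgs1 at 52.2 CPM (79.9 to 88.2). These values enter the monocyte end of the scale on which BMDM were placed.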

How the results depend on the processing

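No paired analysis was possible because the groups compared share no replicate numbers. With a library left out in turn, genes higher than in normal MG numbered 3637 to 4029 and lower 3153 to 3830, and against monocytes 4348 to 4752 and 3171 to 3827. Under the other settings each of the 4 counts stayed within 1.5 times its value. No named gene called with all libraries turned direction in any setting. In 52 cases a named gene lost its call, among them Itgb5, C1qc, Foxp1, Rfx5, Pdia3, Casp1, Tyrobp, Chi3l3, Sfpi1, S100a9 and Retnlg, and in 17 a gene gained one. The cause was not tested. With a pseudocount of 5 the median place of the secreted list was 0.51. The monocyte libraries are shallower and hold neutrophil markers at up to 24449 CPM, and with 3 BMDM libraries that differ in neutrophil, dendritic cell and microglia transcripts a small difference from normal MG could not be settled.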

Other observations

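Genes of non-classical monocytes, the patrolling type, were higher in BMDM than in normal MG for 9 of 12 members and lower for 1, with a median of 4.51, and against Ly6C-high monocytes 8 were lower and 2 higher. Spn was at 5.82, 2.95 and 6.27 CPM against a monocyte mean of 83.0, while Itgax (CD11c) was at 496, 462 and 522 CPM against 6.52 to 9.09 in normal MG and 50.1 in monocytes. Cd36, a fatty acid receptor, was at 222, 151 and 93.3 CPM against 1.29 to 2.75. Tumour MG held Cd36 at 147 to 226 CPM and overlapped the BMDM. Of 26 chemokine receptors and adhesion genes 16 were higher than in normal MG and 6 lower (Cx3cr1, Itgam, Itga6, Selplg and Icam1 among them), with a median of 2.11. Il6 was at 27.4, 242 and 26.1 CPM against 12 to 14.3 in normal MG, with BMDM BB30101 the highest, the library that also had the most Arg1. Both genes were chosen after their values were seen.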
